A study of Mus musculus with 3 samples.

Results

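Wnt antagonists of the developing mouse palate are described here as a set of 7 genes, Dkk2, Dkk3, Kremen1, Wif1, Frzb, Sfrp1 and Sfrp2, taken by name from the 32285 genes measured. Single-cell RNA sequencing had been done on palatal shelves, the paired outgrowths that form the secondary palate, of wild-type C57BL/6J mouse embryos. Shelves were taken on 3 successive days of gestation, named E13.5, then E14.5, then E15.5, and values listed in threes below follow that order. These stages were the only groups, with 1 library each, and every library pooled the tissue of 3 embryos, digested with TrypLE and fixed in methanol as single cells. Because there was no second library of any stage, no difference between stages has a replicate check, and no p-value was computed.

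Wnt proteins are secreted ligands that bind Frizzled receptors, in the canonical branch together with the co-receptor Lrp5 or Lrp6, and so stabilise β-catenin. Dickkopf proteins such as Dkk2 bind the co-receptors, and Kremen1 is a transmembrane receptor that binds Dickkopf and Lrp6 together. Wif1 and the secreted Frizzled-related proteins Frzb, Sfrp1 and Sfrp2 instead bind Wnt ligands outside the cell. Wnt signalling is required for palate formation in mice, and the mesenchyme of the shelf exchanges Wnt signals with the epithelium that covers it.

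The 3 libraries held 4236, 2079 and 3113 cell barcodes with 11472663, 5293977 and 8313677 unique molecular identifiers (UMIs, each standing for 1 captured RNA molecule). After filters on cells, 3583, 1750 and 2584 cells were used. Cells were assigned to classes by counting, for each class, how many of its markers (8 a class, 7 for erythroid cells) had at least 1 UMI. The mesenchymal lineage, which joins mesenchymal, osteogenic and chondrogenic markers, took 582, 1234 and 1796 cells. The E13.5 library stood apart: 16.2% of its cells were of the mesenchymal lineage against 70.5% and 69.5% later, and 52.9% were neuronal against 6.74% and 6.23%. Libraries shared few barcodes, 3 between E13.5 and E14.5 and 1 in each other pair.

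Such a class is a range and not a type. Of the lineage cells, 128, 93 and 120 had exactly 2 markers, the least allowed, which is 21.99%, 7.54% and 6.68% of them. The median lineage cell had 3, 4 and 4 markers of its own and 1, 0 and 1 of the best other class. Within the lineage all 8 mesenchymal markers were detected at each stage, and their summed level was 2503, 7990 and 9128 CPM (counts per 1000000, a gene's UMIs scaled to that many UMIs of the cells summed). The 8 chondrogenic markers summed to 1379, 1247 and 369 CPM there, the osteogenic ones to 377, 1354 and 1261 CPM (Dmp1 and Bglap at 0 at E13.5), and the neuronal ones to 334, 134 and 91.6 CPM. The lineage of the E13.5 library held more chondrogenic and neuronal marker RNA and less mesenchymal marker RNA, and values for single clusters and for a fixed mix of gates follow the summary of the stage differences below. Of 15 transcription factors of the palatal mesenchyme, among them Pax9, Shox2, Msx1 and Barx1, every one was detected in the lineage at all 3 stages.

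RefSeq start regions (GRCm38.p6) were matched for 4 of the 7 genes, Dkk2, Wif1, Sfrp2 and Frzb. The bases just before the start are shown for the 3 genes with the largest E15.5 to E13.5 differences among these. The bases are read in the direction of transcription, with a TATAAA match in capitals. For Wif1 the 44 bases that the GENCODE gene model already covers are left off. For Frzb that model covers 229 of the 250 bases, so none are shown.
Dkk2, chr3:132085042-132085291, plus strand: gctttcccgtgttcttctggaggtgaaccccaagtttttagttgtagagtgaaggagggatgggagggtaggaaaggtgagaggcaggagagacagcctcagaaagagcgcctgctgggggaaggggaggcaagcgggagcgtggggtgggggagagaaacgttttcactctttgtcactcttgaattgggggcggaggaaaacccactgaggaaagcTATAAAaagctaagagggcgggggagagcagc
Wif1, chr10:121033754-121033959, plus strand: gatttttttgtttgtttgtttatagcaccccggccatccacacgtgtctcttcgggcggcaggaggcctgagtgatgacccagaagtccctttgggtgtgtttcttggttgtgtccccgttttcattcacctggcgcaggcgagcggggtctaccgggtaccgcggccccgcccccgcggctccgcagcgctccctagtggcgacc
Sfrp2, chr3:83766071-83766320, plus strand: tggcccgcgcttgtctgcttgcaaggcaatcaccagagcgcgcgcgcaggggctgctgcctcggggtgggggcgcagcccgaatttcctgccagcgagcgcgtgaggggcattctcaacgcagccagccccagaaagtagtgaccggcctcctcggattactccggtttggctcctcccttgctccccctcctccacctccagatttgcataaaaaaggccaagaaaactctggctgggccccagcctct

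The 250 bases before the start of Dkk2 held 1 TATAAA, on the gene's own strand and beginning 32 bases before the start, and those of the other 3 genes held none. Among 32851 RefSeq start regions of the same length, 7.59% held TATAAA on the gene's strand. The TCF/LEF letters CTTTGAA or CTTTGAT, searched on both strands, were in 0 of the 4 regions and in 7.48% of all. The RUNX letters TGTGGT, also on both strands, were in 0 of the 4 and in 14.0% of all. With 1 match in all, none overlapped another. G and C made up 55.6% for Dkk2, 62.8% for Wif1, 63.6% for Sfrp2 and 64.4% for Frzb, where the median over all start regions was 52.4% and the middle of the regions, from the lower to the upper quartile, ran from 45.2% to 61.2%. These matches describe letters only.

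In the mesenchymal lineage taken as a whole, most members were higher at the later stages. From E13.5 to E15.5, Dkk2, Wif1, Sfrp2 and Kremen1 differed by at least 2-fold upward, which makes 4 of 7 members, where 10.3% of the 11608 genes tested were higher by that much. The median log2 ratio was 1.27 for the 7 members and -0.000446 for all genes tested. At E14.5 against E13.5 the members at least 2-fold higher were those 4 and Frzb, 5 of 7 against 8.72% of genes, with a median log2 ratio of 1.14 for the members and 0.02 for all genes tested. Between E14.5 and E15.5 none of the 7 reached a log2 ratio of 1, where 0.991% of genes were that much higher. The members' median was 0.36 beside -0.0076 over all genes, and Wif1 lay at the limit, with a log2 ratio of 0.99 after the added 1 CPM and 2.02-fold without it. No member was 2-fold lower in these 3 comparisons, where 4.48%, 2.86% and 1.39% of genes were (E15.5 over E13.5, E14.5 over E13.5, E15.5 over E14.5). All 7 members passed the minimum level for a gene to be tested, a mean of 5 CPM over the lineage of the 3 stages, or over both groups where classes or gates are compared. A log2 ratio here is the log2 of the ratio of CPM values after adding 1 CPM to each. With the mean of per-cell CPM in place of the sum, the log2 ratio of Frzb at E14.5 against E13.5 was 0.64 in place of 1.14, and that of Sfrp2 was 0.97 with clusters in place of gates and 0.99 with a fixed mix of gates, in place of 1.11.

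The lineage held different cells at each stage. In clusters made without the 7 genes, cluster 5, a mesenchymal-like cluster with Cxcl12 and Barx1 among its leading genes, had 394, 173 and 200 cells. Clusters 6, 9, 18, 19 and 20 had 1, 22, 11, 10 and 23 cells at E13.5 but 147, 203, 93, 142 and 273 at E14.5. Within cluster 5 alone, 2 members rather than 4 were at least 2-fold higher at the last stage than at the first, Dkk2 and Wif1, and 0 rather than 5 at E14.5 against E13.5. Dkk2 there was at 116, 216 and 274 CPM, 2.37-fold from first to last (1.75 to 3.21), and Wif1 at 12.3, 19.9 and 47.3 CPM, 3.85-fold (1.62 to 9.57). Sfrp2 was at 372, 535 and 735 CPM, 1.98-fold (1.66 to 2.35). Kremen1 had 13, 3 and 9 UMIs in cluster 5, at 16.0, 9.97 and 28.4 CPM, and Frzb 12, 3 and 5 UMIs, at 14.8, 9.97 and 15.8 CPM, with intervals across 1 for each pair of stages. The part of cluster make-up in the whole-lineage ratios below was not tested beyond the values given here.

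Over the 5 lineage clusters with at least 20 cells at every stage (5, 9, 12, 13 and 20), the ratio of the last stage to the first was not the same throughout. Dkk2 was higher with an interval off 1 in 4 of 5 and at 1.26-fold in cluster 20 (0.75 to 2.29), on 15 UMIs at E13.5. Wif1 was higher in 4 of 5. Sfrp2 was higher in 4 but lower in cluster 20, at 0.59-fold (0.43 to 0.81), where E14.5 was 0.49-fold E13.5 (0.35 to 0.68). Frzb was higher in 0 and lower in cluster 9, at 0.22-fold (0.087 to 0.74) on 5 UMIs at E13.5. Sfrp1 was higher in cluster 9, at 4.27-fold (1.45 to 20.8) on 3 UMIs at E13.5, and lower in cluster 12, at 0.64-fold (0.42 to 0.94). Dkk3 was higher in 0 and lower in cluster 12, with 0 UMIs against 14 and an interval up to 0.87. Kremen1 had an interval across 1 in all 5. With the mix of the 3 gates held fixed, the log2 ratios over the same span were 1.78 for Dkk2, 0.64 for Dkk3, 2.65 for Wif1, 0.37 for Frzb, 0.39 for Sfrp1, 1.12 for Sfrp2 and 1.57 for Kremen1. Over the same 5 clusters, E14.5 was above E13.5 with an interval off 1 in 3 for Sfrp2, which was lower in 1. It was above in 2 for Dkk2 and for Sfrp1, in 1 for Dkk3 and for Wif1, and in 0 for Frzb and Kremen1.

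**Figure D1:**
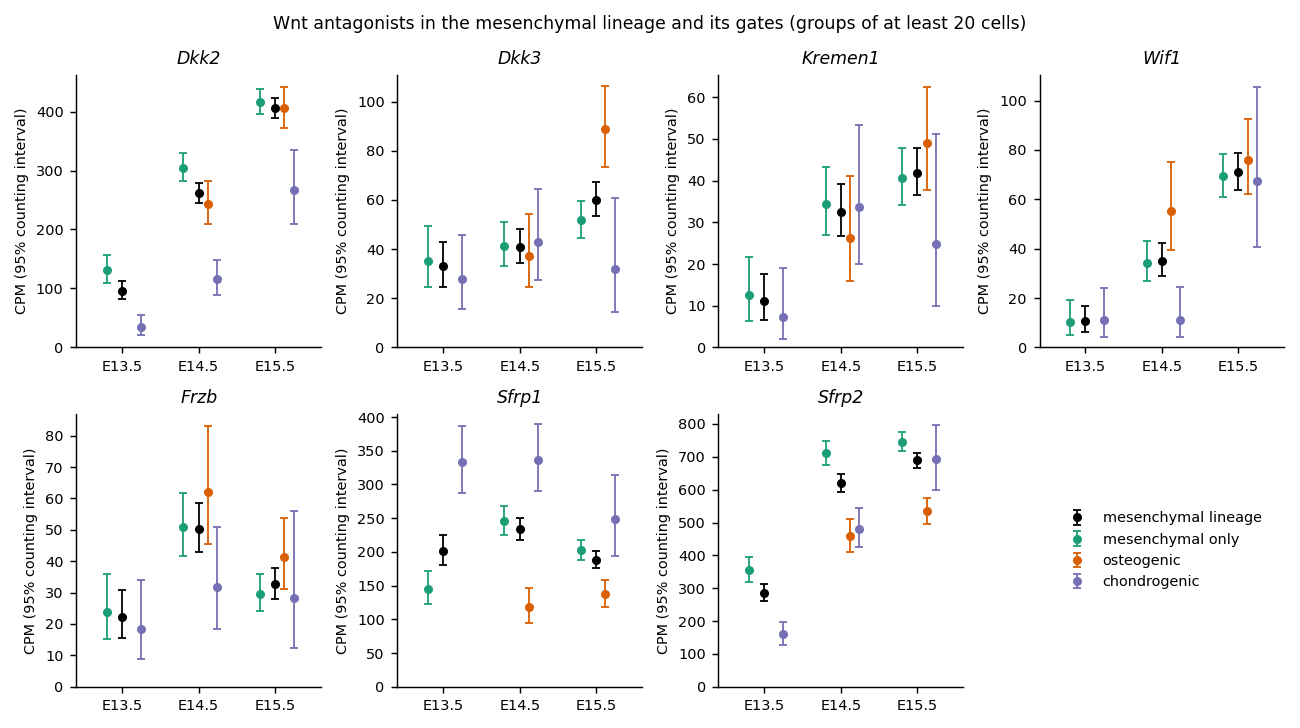
Level of each gene (CPM, vertical axis from 0) by stage, in the whole mesenchymal lineage and in its mesenchymal-only, osteogenic and chondrogenic cells, for groups of at least 20 cells; bars are 95% counting intervals. In the whole lineage Dkk2 and Wif1 step up at each stage and Frzb is highest at E14.5, and Sfrp1 is highest in chondrogenic cells at each stage.

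Dkk2 (chromosome 3, 132085292 to 132180304, plus strand, GRCm38) is a Dickkopf that can antagonise or enhance Lrp6 signalling depending on the context. Its level in the lineage was 96.3 CPM at E13.5 (155 UMIs), 261 CPM at E14.5 (877 UMIs) and 406 CPM at E15.5 (2103 UMIs). Each stage lay above the one before, with intervals that did not overlap. The last level was 4.21-fold the first (95% counting interval 3.57 to 4.99, log2 ratio 2.06) and 1.55-fold the E14.5 level (1.43 to 1.68). The same order held in each gate of the lineage taken alone: mesenchymal-only cells had 132, 304.5 and 416 CPM, and chondrogenic cells had 35.2, 116 and 266.5 CPM. With the mix of the 3 gates held fixed, the log2 ratio between the first and last stage was 1.78, with all cells of each library summed it was 3.36, and in cluster 5 alone it was 1.24.

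Where Dkk2 sat inside the lineage differed between the gates. Chondrogenic cells had less than mesenchymal-only cells at each stage, 35.2 against 132 CPM, 116 against 304.5 CPM and 266.5 against 416 CPM. Osteogenic cells, 182 and 304 of them at the later stages, had 243 and 406 CPM, the latter within the interval of mesenchymal-only cells. After thinning each cell to 1500 UMIs, 8.57%, 22.1% and 28.0% of lineage cells (385, 755 and 1128 cells deep enough) held a Dkk2 UMI. Without thinning the shares were 12.2%, 28.0% and 34.9%, at median lineage depths of 2064.5, 1864 and 2017 UMIs. Myeloid cells, which serve as the background, held one in 0 of 12, 0 of 34 and 2 of 49 cells at median depths of 1953, 1980.5 and 1851 UMIs. Where myeloid cells held none, the exact 95% interval reached 26.5% and 10.3%, and without thinning 0 of 20, 1 of 54 and 2 of 85 myeloid cells held one.

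Outside the lineage Dkk2 was low in epithelium and in neurons, and the values rested on few cells. Epithelial cells had 5.16, 41.0 and 9.30 CPM from 2, 15 and 8 UMIs, and of the 15 UMIs at E14.5 a single cell held 13. Neuronal cells had 12.03, 88.4 and 30.6 CPM from 75, 34 and 16 UMIs, 23 of the 34 in a single cell. Of those neuronal UMIs, 69, 34 and 15 lay in neuronal cells that also carried a mesenchymal marker, cells with a median of 3851, 2531 and 2880 UMIs against 2049, 1692 and 1760 UMIs in neuronal cells without one. In the neuronal cells without such a marker Dkk2 was at 1.54, 0 and 4.24 CPM, from 6, 0 and 1 UMIs. Most neuronal Dkk2 UMIs lay in deeper cells that also held mesenchymal RNA, and the part of such cells in the level was not tested.

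Glial and endothelial cells held Dkk2 too, on small numbers. Glial cells had 202, 126 and 172 CPM, but from 4 cells with a UMI at each stage among 15, 17 and 29 cells. Of their 9, 8 and 14 UMIs, 8, 8 and 5 lay in glial cells that also had a mesenchymal marker, and the part of such cells was not tested. At E13.5 the lineage was 0.48-fold the glial level with an interval across 1 (0.25 to 1.07). Later it was 2.07-fold (1.05 to 4.81) and 2.35-fold (1.40 to 4.31). Endothelial cells had 145 CPM at E14.5, from 20 UMIs in 7 of 47 cells, and 0 UMIs in 61 cells at E15.5. The exact interval of the ratio of the later endothelial level to the earlier one reached from 0 to 0.14. Of the 20 endothelial UMIs, 18 lay in cells that also had a mesenchymal marker, and the part of such cells was not tested. In the order of classes at E15.5, neuronal cells had 3.29-fold the epithelial level (1.33 to 8.88), and epithelial and myeloid cells were at 1.07-fold (0.21 to 10.3). Cells that also had a mesenchymal marker held 15 of the 16 neuronal, 7 of the 8 epithelial and 1 of the 2 myeloid UMIs. The part of such cells in this order was not tested.

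**Figure D2:**
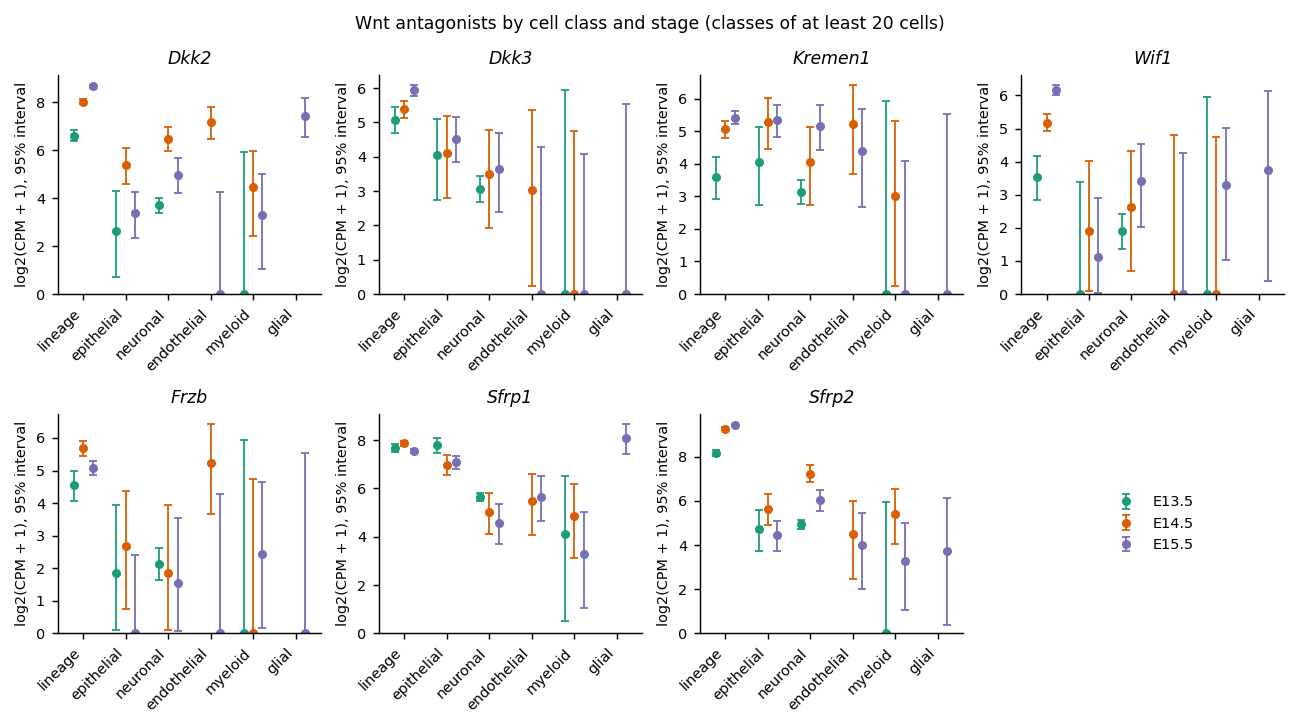
Level of each gene on a log2(CPM + 1) scale, by cell class (horizontal axis) and stage (colours), for classes of at least 20 cells; bars are 95% counting intervals and points at 0 have no UMI. Among these classes the lineage points are the highest for Dkk2, Wif1, Frzb and Sfrp2, but some intervals overlap, as for Frzb in endothelium at E14.5. Sfrp1 and Kremen1 reach similar values in epithelium, and Sfrp1 at E15.5 is at 271 CPM in glial cells and 188 CPM in the lineage.

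Dkk3 (chromosome 7, 112116017 to 112159057, minus strand) is the divergent member of the Dickkopf family, whose effect on Wnt signalling varies between settings. Its lineage level was 32.9, 40.8 and 60.2 CPM, from 53, 137 and 312 UMIs. The E13.5 and E14.5 intervals overlapped and the E15.5 level lay above both, at 1.83-fold the E13.5 level (1.36 to 2.49). The same ratio was 1.46 in mesenchymal-only cells (1.01 to 2.18) and had an interval across 1 in chondrogenic cells, at 1.15 (0.44 to 2.80), and in cluster 5, at 1.28 (0.66 to 2.41). At E15.5 it was highest in osteogenic cells, at 88.9 CPM against 51.7 CPM in mesenchymal-only cells, a 1.72-fold difference (1.35 to 2.18). At E14.5 those gates were at 37.3 and 41.5 CPM, a fold of 0.90 with an interval across 1 (0.56 to 1.40). Thinned shares of lineage cells were 5.19%, 5.70% and 7.36%, with 0 of 12, 34 and 49 myeloid cells positive.

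In epithelium Dkk3 was at 15.465, 16.4 and 22.1 CPM, from 6, 6 and 19 UMIs. The lineage was 2.13-fold higher at E13.5 (0.92 to 6.06), 2.49-fold on the next day (1.12 to 6.91) and 2.72-fold on the last (1.71 to 4.59). Neuronal cells were lower, at 7.38, 10.4 and 11.5 CPM. At E15.5 Dkk3 had 0 UMIs in endothelial, myeloid and glial cells, which allows up to 14.9, 13.1 and 36.9 CPM, taking 3 UMIs for each count of 0.

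Kremen1 (chromosome 11, 5191552 to 5261558, minus strand), the Dickkopf receptor, was found in both mesenchyme and epithelium. In the lineage it was at 11.2, 32.5 and 41.8 CPM, from 18, 109 and 217 UMIs, and in epithelium at 15.465, 38.2 and 39.5 CPM, from 6, 14 and 34 UMIs. With each tissue taken as a whole, the E13.5 value was the lowest. The ratio of lineage to epithelium was 0.72 (0.28 to 2.23), 0.85 (0.49 to 1.61) and 1.06 (0.74 to 1.57) at the 3 stages, so no difference was detectable at this depth. In the lineage its log2 ratio between the first and last stage was 1.81, and in cluster 5 alone it was 0.79. Thinned shares of lineage cells were 1.04%, 4.24% and 5.23%, against 0 of 12, 1 of 34 and 0 of 49 myeloid cells.

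Epithelium was not uniform for Kremen1. Stratified epithelial cells, which carry at least 2 markers such as Krt5, Krt14 and Trp63, had 63.0 CPM at E15.5 (26 UMIs in 19 of 121 cells), against 17.9 CPM in the other epithelial cells (8 UMIs in 7 of 119 cells). That is 3.52-fold (1.55 to 9.01). At E14.5 the order was the other way, 19.1 against 52.6 CPM, on 3 and 11 UMIs and with an interval of the fold from 0.065 to 1.37. Over the 3 stages the other epithelial cells had 16.8, 52.6 and 17.9 CPM, and E15.5 was 1.06-fold E13.5 (0.32 to 3.72). Stratified cells were 7 of 114 epithelial cells at E13.5, 42 of 106 at E14.5 and 121 of 240 at E15.5. The part of this in the epithelial level was not tested. Neuronal cells had 7.86, 15.6 and 34.4 CPM, and at E15.5 the lineage was 1.22-fold their level with an interval across 1 (0.75 to 2.09). Kremen1 was at 0 UMIs in glial cells at each stage and in myeloid cells at E13.5 and E15.5. Taking 3 UMIs for each count of 0, this allows up to 67.2, 47.4 and 36.9 CPM in glial cells and 49.0 and 13.1 CPM in myeloid cells. At E15.5 a glial-like cluster of 69 cells had 4 Kremen1 UMIs, at 25.7 CPM.

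Wif1 (chromosome 10, 121033960 to 121100650, plus strand) binds Wnt ligands through its WIF domain. Its lineage level was 10.6, 35.2 and 71.0 CPM, from 17, 118 and 368 UMIs. Each stage was above the one before without overlap, and the log2 ratio between the first and last stage was 2.64, the largest of the 7. Between E14.5 and E15.5 it was 2.02-fold (1.64 to 2.50), a log2 ratio of 0.99 that lies just short of 1. Chondrogenic cells had 11.1, 11.2 and 67.5 CPM from 6, 6 and 19 UMIs. Osteogenic cells had 55.3 and 76.1 CPM at E14.5 and E15.5, beside 34.3 and 69.3 CPM in mesenchymal-only cells.

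Outside the lineage few Wif1 UMIs were found. Epithelial cells held 0, 1 and 1 UMIs in all, and the ratio of lineage to epithelium was 12.9 at the middle stage (2.27 to 513) and 61.0 at the last (10.9 to 2417). At E13.5, with 0 epithelial UMIs, the exact interval of the ratio began at 0.995, so no difference was detectable at this depth. Neuronal cells had 2.73, 5.20 and 9.56 CPM from 17, 2 and 5 UMIs. Thinned shares in the lineage were 1.30%, 4.64% and 9.31%, against 0 of 12, 0 of 34 and 1 of 49 myeloid cells.

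Frzb (chromosome 2, 80411970 to 80447625, minus strand), also called Sfrp3, binds Wnt ligands. Its lineage level was 22.4, 50.4 and 32.6 CPM, from 36, 169 and 169 UMIs. In the whole lineage E14.5 was the highest, and the last level was 1.46-fold the first (1.01 to 2.15). In mesenchymal-only cells that ratio was 1.24 with an interval across 1 (0.78 to 2.04), and in cluster 9 it was below 1. Cluster 5 alone showed no peak at E14.5, and cluster 19, where Frzb was highest, had 10 cells at E13.5 against 142 and 273 later. Of the 5 clusters with at least 20 cells at every stage, 0 were higher at E14.5 than at E13.5 with an interval off 1. Clusters 9 and 20 were highest at E13.5, at 102 and 70.4 CPM on 5 UMIs each, and cluster 13 at E14.5, at 52.3 CPM. The E15.5 level of the whole lineage was 0.65-fold its E14.5 level (0.52 to 0.81). Thinned shares gave the same order, 3.64%, 6.89% and 4.79%, with 0 of 12, 34 and 49 myeloid cells. In mesenchymal-only cells the values were 23.9, 51.0 and 29.6 CPM and in osteogenic cells 62.2 and 41.4 CPM at the later stages.

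Epithelial cells had 1, 2 and 0 Frzb UMIs and neuronal cells 21, 1 and 1. At E15.5, with 0 epithelial UMIs, the exact interval of the ratio of lineage to epithelium began at 7.52. Endothelial cells had 36.3 CPM at E14.5, from 5 UMIs in 2 of 47 cells, all in cells that also had a mesenchymal marker, and 0 UMIs at E15.5.

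Sfrp1 (chromosome 8, 23411502 to 23449632, plus strand) had UMIs in every class of at least 20 cells. In the lineage it was at 202, 233 and 188 CPM, from 325, 783 and 977 UMIs. Between the first and last stage its log2 ratio was -0.10 and the sign was not kept: it was 0.39 with the mix of gates held fixed and 0.71 with all cells of each library summed. Mesenchymal-only cells had 145, 246 and 203 CPM and chondrogenic cells 334, 337 and 248.8 CPM, while chondrogenic cells were 173 of 582 lineage cells at E13.5 but 71 of 1796 at E15.5.

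Chondrogenic cells were above mesenchymal-only cells for Sfrp1 at E13.5, by 2.30-fold (1.83 to 2.88), and a day later by 1.37-fold (1.15 to 1.62), while at the last stage the ratio was 1.23 (0.95 to 1.57). Osteogenic cells lay below mesenchymal-only cells, at 119 against 246 CPM at E14.5, which is 0.48-fold (0.38 to 0.61), and at 137 against 203 CPM at E15.5, 0.68-fold (0.57 to 0.80). Osteogenic cells were the lowest of the 3 gates at both later stages. Thinned shares of the whole lineage were 21.8%, 25.03% and 22.9%, against 0 of 12, 0 of 34 and 1 of 49 myeloid cells.

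Epithelial cells had 219, 126 and 135 CPM of Sfrp1, from 85, 46 and 116 UMIs. At E13.5 the lineage was 0.92-fold the epithelium with an interval across 1 (0.72 to 1.19), and later the lineage was higher by 1.86-fold (1.38 to 2.56) and 1.40-fold (1.15 to 1.71). Removing the epithelial cells with a mesenchymal marker left 225, 137 and 132 CPM. Stratified epithelial cells had less than the other epithelial cells at E15.5, 67.8 against 197 CPM or 0.345-fold (0.22 to 0.53), and at E14.5, 82.7 against 158 CPM or 0.52-fold (0.25 to 1.02).

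Neural classes also held Sfrp1. Glial cells had 425, 332 and 271 CPM, from 19, 21 and 22 UMIs in 9 of 15, 10 of 17 and 14 of 29 cells. Of these UMIs 7, 21 and 14 lay in glial cells that also had a mesenchymal marker, and the part of such cells was not tested. The lineage was 0.47-fold the glial level at E13.5 (0.30 to 0.80). At the later stages it was 0.70-fold (0.46 to 1.14) and 0.70-fold (0.46 to 1.12), with intervals across 1. Neural progenitor cells, 101 of them at E13.5, had 160.0 CPM, while neuronal cells had 49.4 CPM. Of the 308 neuronal UMIs at E13.5, 141 lay in cells without a mesenchymal marker, where the level was 36.3 CPM.

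Sfrp2 (chromosome 3, 83766321 to 83774316, plus strand) binds Wnt ligands and was found in 29.0%, 47.9% and 51.5% of lineage cells before thinning. Its level there was 286, 619.8 and 689 CPM, from 460, 2080 and 3573 UMIs. In the whole lineage most of the difference lay between E13.5 and E14.5, and the E15.5 level was 1.11-fold the E14.5 level. Thinned shares were 22.9%, 40.3% and 46.5%, against 0 of 12, 2 of 34 and 1 of 49 myeloid cells. Chondrogenic cells had 159.5, 481 and 693 CPM, which at E13.5 was 0.45-fold the level of mesenchymal-only cells and at E15.5 was 0.93-fold. In cluster 20, as given above, Sfrp2 was lower at both later stages than at E13.5. The steps to E14.5 and then to E15.5 were 1.44-fold and 1.37-fold in cluster 5. In cluster 13 they were 1.24-fold (0.97 to 1.61) and 1.55-fold (1.30 to 1.85). In clusters 9 and 12 the first step was 4.02-fold and 3.50-fold, and the second was 0.87-fold and 1.05-fold.

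Epithelial Sfrp2 was 25.8, 49.2 and 20.9 CPM, from 10, 18 and 18 UMIs, and the lineage was 11.1-fold (5.98 to 23.3), 12.6-fold (7.96 to 21.3) and 32.9-fold (20.8 to 55.6) higher. Of the epithelial UMIs 0, 12 and 10 lay in cells that also had a mesenchymal marker, and the part of such cells was not tested. With clusters in place of gates the log2 ratio of lineage to epithelium was 2.79 at E14.5 in place of 3.63, and 3.57 at E15.5 in place of 4.98. Neuronal cells had 29.7, 151 and 65.0 CPM from 185, 58 and 34 UMIs. Of these UMIs 147, 57 and 32 lay in neuronal cells that also carried a mesenchymal marker, and the neuronal cells without one had 9.78, 6.40 and 8.48 CPM.

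**Figure D3:**
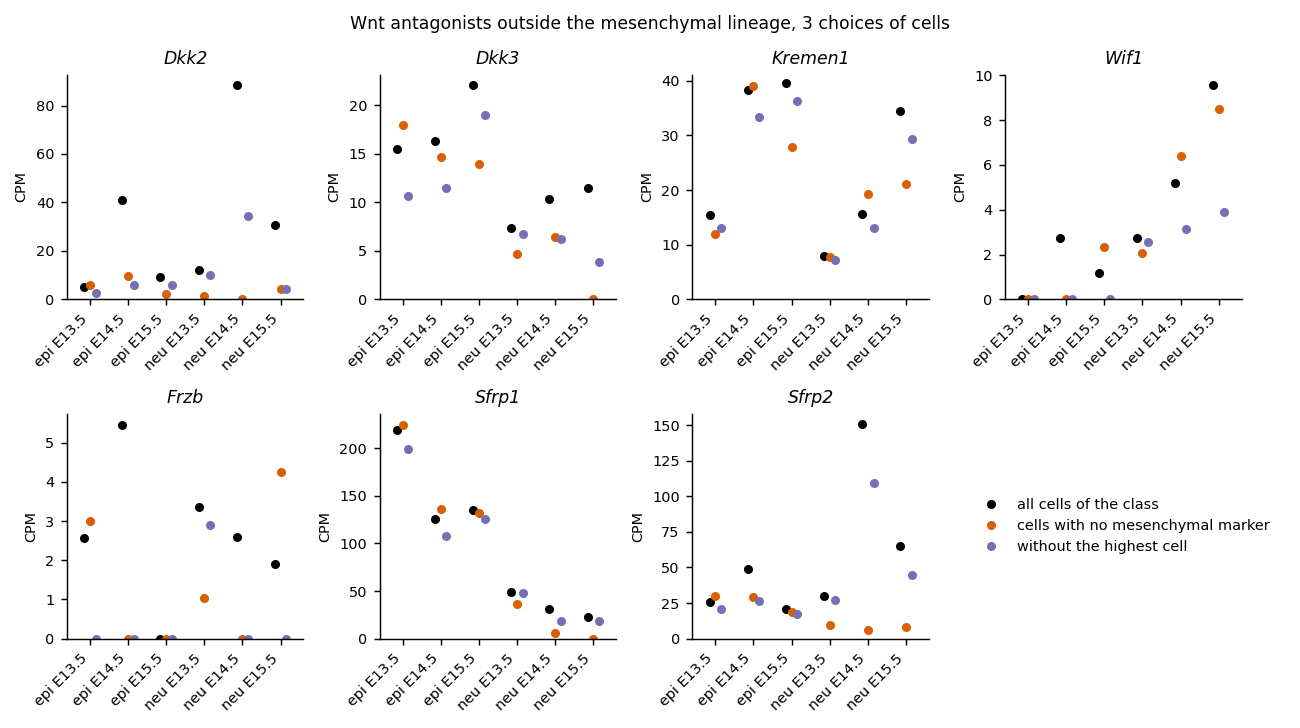
Level (CPM, from 0) of each gene in epithelial (epi) and neuronal (neu) cells of each stage, for all cells of the class, for cells with no UMI of the 8 mesenchymal markers, and without the cell richest in the gene. In the second choice neuronal Dkk2 lies at 0 to 4.24 CPM and neuronal Sfrp2 at 6.40 to 9.78 CPM, whereas epithelial Sfrp1 stays between 132 and 225 CPM there.

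Set against epithelium, the lineage was at least 2-fold higher for 5 of 7 members at E13.5, where 16.1% of 11372 genes were, and for 5 of 7 at E14.5 (16.3% of genes) and at E15.5 (14.9% of genes). They were Dkk2, Dkk3, Wif1, Frzb and Sfrp2 each time, but at E13.5 the intervals of Dkk3 and Wif1 reached 1. With clusters in place of gates the log2 ratio of Dkk3 was 0.61 at E13.5 and 0.53 at E14.5, in place of 1.04 and 1.27. These counts are descriptions, since a member under 5 CPM in the other class passed the minimum only through the lineage and had to differ. In epithelium that was so for Wif1 at each stage and for Frzb at E13.5 and E15.5, and in neuronal cells for Frzb at each stage and for Wif1 at E13.5. Set against neuronal cells, the lineage was at least 2-fold higher for 6 of 7 at E13.5 (14.2% of genes), 7 of 7 at E14.5 (17.2%) and 6 of 7 at E15.5 (18.8%), Kremen1 being the exception at E13.5 and E15.5. At E14.5 Kremen1 stood on 6 neuronal UMIs, at 2.08-fold with an interval across 1 (0.93 to 5.80), and its log2 ratio of 1.01 was 0.041 with clusters in place of gates. The medians over the members were log2 2.71, 2.64 and 4.98 against epithelium, beside 0.0084, -0.025 and -0.073 over all genes tested. With the members at 0 epithelial UMIs, Wif1 at E13.5 and Frzb at E15.5, set to the lower end of their intervals, the medians were 1.04 and 2.91 there. Against neuronal cells they were 2.02, 2.03 and 2.98, beside 0.081, 0.036 and 0.036.

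Within the lineage, few members passed 2-fold between gates. Against mesenchymal-only cells, chondrogenic cells at E13.5 were at least 2-fold higher for 1 of 7 members (Sfrp1; 6.36% of genes) and lower for 2 (Dkk2 and Sfrp2; 6.45%). A day later they were higher for 0 (6.69%) and lower for 2 (Dkk2 and Wif1; 5.4%), and at the last stage higher for 0 (8.06%) and lower for 0 (8.93%). Osteogenic cells at E14.5 were higher for 0 (3.76%) and lower for 1 (Sfrp1; 3.98%), and at E15.5 higher for 0 (2.24%) and lower for 0 (2.06%). The members' median log2 ratios were -0.35, -0.56 and -0.11 for chondrogenic cells and -0.32 and 0.13 for osteogenic cells, beside -0.0049, 0.028, 0.021, 0.0057 and 0.0077 over all genes tested.

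**Figure D4:**
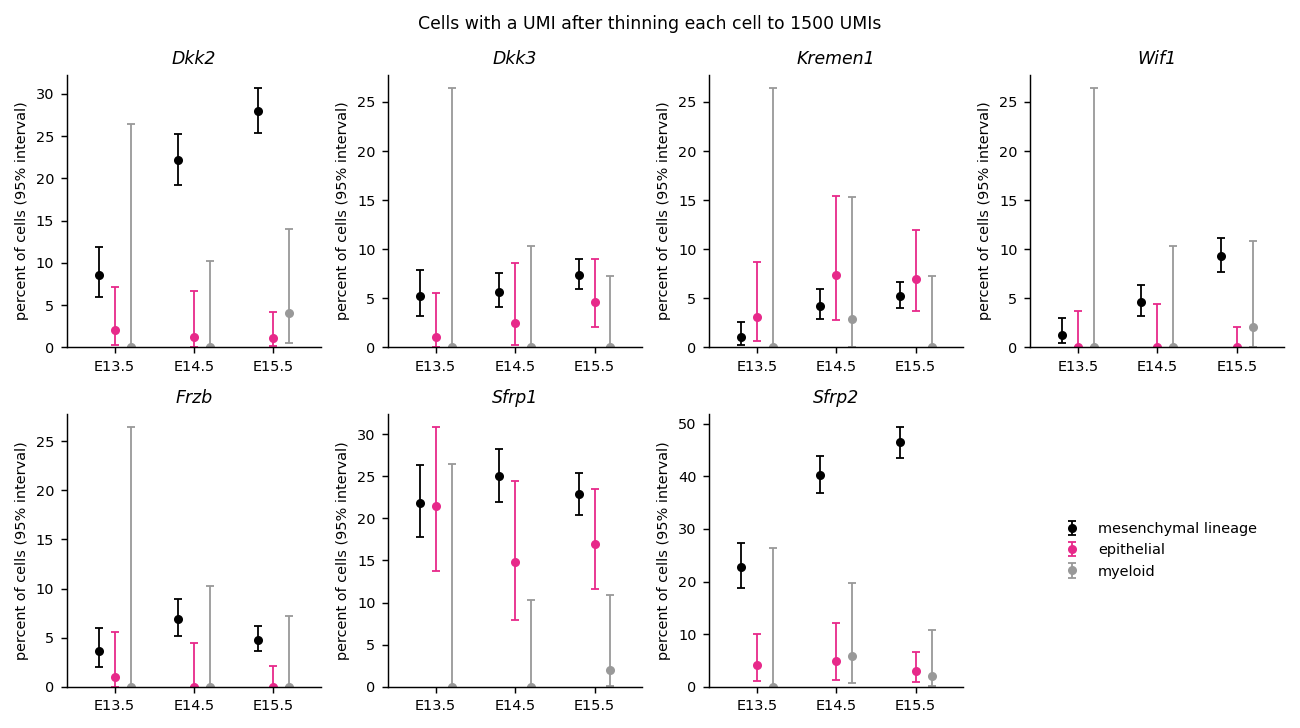
Percent of cells with at least 1 UMI of each gene after thinning every cell to 1500 UMIs (shallower cells left out), by stage, for mesenchymal lineage, epithelial and myeloid cells; bars are exact 95% binomial intervals. Lineage shares of Dkk2 go from 8.57% to 28.0% and of Wif1 from 1.30% to 9.31%, and the myeloid intervals are wide because only 12, 34 and 49 cells enter.

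Cells differed in how many members they held. In thinned lineage cells none of the 7 had a UMI in 49.4%, 28.7% and 23.9% of cells at the 3 stages. At least 3 members were found in 1.56%, 7.42% and 9.49% of cells, and the most in any cell was 5, at E14.5. The mean number was 0.644, 1.09 and 1.24 in the lineage, beside 0.327, 0.309 and 0.327 in epithelium and 0, 0.0882 and 0.102 in myeloid cells. Pairs of members were counted in single cells beside the number that their separate shares would give. Sfrp1 met Sfrp2 in 17, 90 and 141 cells at the 3 stages (19.2, 76.1 and 119.9 expected), and Dkk2 met Sfrp2 in 8, 60 and 137 (7.54, 67.2 and 147 expected). Frzb met Sfrp2 in 4, 13 and 21 cells (3.2, 20.9 and 25.1 expected), and Dkk3 met Sfrp2 in 4, 18 and 27 (4.57, 17.3 and 38.6 expected). In counts this sparse such gaps are descriptions only.

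The same clusters showed where in the lineage each was high. Of 22 clusters, 8 were mesenchymal-like, osteogenic-like or chondrogenic-like by their markers. Cluster 19, a mesenchymal-like cluster led by Cntn6, C1qtnf3 and Tfap2b and with Msx1 among its leading genes, had the highest Dkk2, 536 CPM at E14.5 and 692 CPM at E15.5. It also had the highest Frzb, 154 and 82.3 CPM, where the next cluster, osteogenic-like cluster 20, had 59.6 and 48.7 CPM, the latter with an interval that overlapped. Cluster 9, led by Pgm5 and Itga8 and with Shox2 among its leading genes, had the highest Sfrp2, 1236 and 1069 CPM. It contained 203 and 476 cells at those stages.

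Cluster 20, with Runx2, Alpl and Sp7 in the lead, had the lowest Sfrp1, 70.8 and 72.5 CPM. Chondrogenic-like cluster 12, led by Matn1 and Col2a1, had the highest, 385 and 277 CPM, from 70 and 31 cells, and its intervals overlapped those of cluster 9 at both stages, at 311 and 263 CPM. The same cluster 12 had the lowest Sfrp2 of the 8, 240.1 and 251 CPM, the former with an interval that overlapped that of cluster 20. Wif1 was highest in cluster 9 at E14.5 (67.2 CPM) and in cluster 20 at E15.5 (117 CPM), with intervals that overlapped those of the next, cluster 20 at 49.9 CPM and cluster 12 at 95.2 CPM.

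The step from E14.5 to E15.5 was uneven over these 8 clusters. Dkk2 was higher with an interval off 1 in 4 of them, by 2.39-fold in cluster 9 (1.94 to 2.97), whereas in cluster 20 it stood at 256 and 266 CPM and in cluster 13, led by genes of dividing cells such as Top2a, at 223 and 213 CPM. Wif1 was higher in 5 of 8, by 2.35-fold in cluster 20 (1.55 to 3.66), but not in cluster 9, at 67.2 and 73.4 CPM. Frzb was lower in 4 of 8, among them cluster 19 at 0.53-fold (0.37 to 0.78). Sfrp2 was higher in 3 and lower in 3, at 1.55-fold in cluster 13 (1.30 to 1.85) and 0.62-fold in cluster 6 (0.52 to 0.74).

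**Figure D5:**
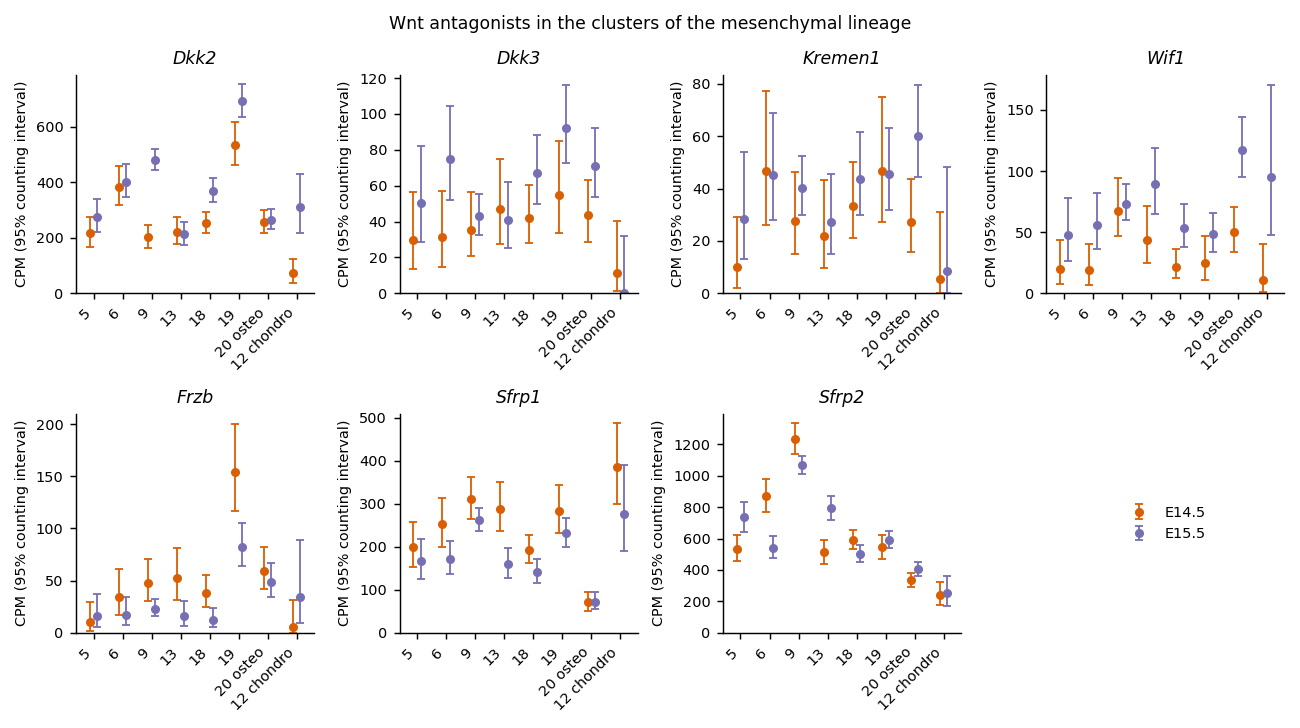
Level (CPM, from 0) of each gene at E14.5 and E15.5 in the 8 clusters of the mesenchymal lineage (numbers on the horizontal axis; 20 is osteogenic-like, 12 chondrogenic-like), with 95% counting intervals. Cluster 19 is highest for Dkk2 and Frzb, cluster 9 for Sfrp2, and cluster 20 is lowest for Sfrp1.

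Thinned lineage cells were also split by whether they held a UMI of each of 15 transcription factors. Over the 58 pairs of a factor and a member with enough UMIs at both later stages, 16 had an interval off 1 at E14.5 and 16 at E15.5, of which 6 were on the same side at both and 0 on opposite sides. The same splits were not counted over all genes, so these numbers have no background and are descriptions only. Cells with Runx2, the osteoblast factor, had 81.3 CPM of Frzb against 32.8 CPM in cells without it at E14.5, and 49.6 against 20.5 CPM at E15.5, which is 2.48-fold (1.43 to 4.43) and 2.41-fold (1.36 to 4.43). They had more Dkk2 (1.27-fold and 1.29-fold) and less Sfrp2 (0.76-fold at both stages). At E13.5 Sfrp2 went the other way in Runx2 cells, at 411 against 210 CPM. Runx2 is itself one of the osteogenic markers.

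Cells with Sox9, the cartilage factor, had less Dkk2 at every stage, at 32.5 against 106 CPM, 169.6 against 294 CPM and 212 against 411 CPM. They had more Sfrp1 at E13.5, 325 against 174 CPM, and at E14.5, 351 against 216 CPM, but 205 against 204 CPM at E15.5. Their Sfrp2 was higher at the later stages, 1.34-fold (1.10 to 1.62) and 1.30-fold (1.07 to 1.57), whereas at E13.5 it was 0.79-fold (0.50 to 1.22). Cells with Barx1 had more Sfrp2 at each stage, at 371 against 224 CPM, 1022 against 533 CPM and 905 against 650.1 CPM. For Wif1 the largest ratio at E14.5 was in Foxf2 cells, 3.58-fold on 4 UMIs (0.92 to 10.0), and at E15.5 in Osr2 cells, 1.86-fold on 11 UMIs (0.90 to 3.46), both with an interval across 1. Shox2 cells had 2.94-fold the Wif1 of the others at E14.5 on 14 UMIs (1.41 to 5.92) and 1.42-fold at E15.5 (0.95 to 2.11). For Dkk3 at E15.5 the smallest was in Pax9 cells, 0.40-fold on 6 UMIs (0.14 to 0.91), and the largest in Foxd1 cells, 2.79-fold on 8 UMIs (1.17 to 5.77). For Kremen1 at E15.5 the smallest was in Barx1 cells, 0.51-fold on 5 UMIs (0.16 to 1.25).

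Over 21 groups of a class and a stage, with at least 20 cells each, the genes whose log2(CPM + 1) followed Dkk2 most closely were Col6a1 (Pearson r = 0.94), Ogn and Sema3e. Sfrp2 was followed by Cdh11 (r = 0.96), Prkg1 and Lum, and Frzb by Slitrk4 (r = 0.92), Islr and Naalad2. Wif1 was followed by Fads3 (r = 0.87), Cdk14 and 9130024F11Rik, and Sfrp1 by Mfap2 (r = 0.90), Dcaf8 and Ephb3. For Kremen1 they were Dnal1 (r = 0.92), Zfp148 and Boc, and for Dkk3 BC067074 (r = 0.97), Raver2 and Gm26771. These groups share libraries and depth, and 12617 genes were compared. Among the members, Dkk3 and Sfrp2 were the most alike (r = 0.83) and Wif1 and Kremen1 the least (r = 0.24).

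Other genes of the pathway in the lineage were taken from lists. Of 14 other antagonists 5 were high enough to test between E13.5 and E15.5, and 3 were at least 2-fold higher and 0 lower, with a median log2 ratio of 1.07. Over all genes tested, 10.3% were higher and 4.48% lower by that much, which is the background for each list here. Apcdd1, a membrane Wnt inhibitor, was at 14.3, 30.1 and 36.6 CPM, and Tpbg, which limits Lrp6 at the membrane, at 9.32, 24.1 and 25.1 CPM. Sostdc1, an Lrp-binding antagonist, was at 40.4, 66.8 and 85.8 CPM, and Igfbp4, a growth factor binding protein that can also inhibit Wnt signalling, at 183, 394 and 356 CPM. Dkk1, the classical Dickkopf, stood at 11.8, 0.894 and 1.93 CPM from 19, 3 and 10 UMIs. Its mean over the 3 stages was under the minimum, so the count leaves it out, although its log2 ratio between the first and last stage was -2.13 (fold interval 0.068 to 0.37). Sost had 0 UMIs.

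Of 19 Wnt ligands 7 were tested, and 4 were at least 2-fold higher and 0 lower, where 10.3% and 4.48% of all genes were. The 4 were Wnt2, Wnt9a, Wnt11 and Wnt16, each under 20 CPM, and the median log2 ratio of the 7 was 1.06. The 2 ligands of at least 20 CPM, neither of them among those 4, were Wnt5a and Wnt5b. Wnt5a was at 80.2, 155 and 148 CPM, and Wnt5b at 39.2, 29.5 and 33.9 CPM. Of 16 receptors and co-receptors 13 were tested, with 1 higher and 2 lower and a median of 0.11. Lrp5 was at 37.3, 79.6 and 90.6 CPM and Ror2, a Wnt5a receptor, at 189, 249.1 and 349 CPM, whereas Fzd3 was at 111, 83.4 and 50.3 CPM and Lrp4 at 32.9, 28.3 and 26.6 CPM. Lrp6, the partner of Kremen1 and Dickkopf, was at 197, 208 and 196 CPM.

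Of 9 R-spondins and their receptors 7 were tested, with 2 higher and 0 lower. Rspo1 was at 5.59, 28.9 and 28.0 CPM and Lgr4 at 119, 154 and 167 CPM, while Rspo3 was at 155, 125 and 99.3 CPM and Rspo2 at 65.3, 48.0 and 62.1 CPM. Of 10 Wnt targets 8 were tested, with 2 higher, 0 lower and a median of 0.31. Nkd1 was at 26.7, 39.0 and 55.5 CPM and Axin2 at 31.1, 41.1 and 45.1 CPM, whereas Lef1 was at 80.8, 84.6 and 51.3 CPM and Ccnd1 at 82.7, 62.9 and 45.9 CPM. Rnf43 and Lgr5 stand in both of these lists.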

How the data were processed

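Values in the deposited tables are whole UMI counts of genes in cells, which the authors made with Cell Ranger 6.1.2 on mm10, per the submitters' processing notes; the annotation is not given in the sources used here. At least 500 genes per barcode were required, and the limit of 20% mitochondrial counts removed 0 cells. Scrublet (scanpy 1.11.5) called 0, 3 and 2 doublets at its own threshold, fewer than a working caller marks; instead, 0.8% of cells for every 1000 were dropped by score (109, 25 and 56 cells).

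A cell joined the class with the most distinct markers, at least 2 and more than any other class. Levels are CPM of summed counts with exact Poisson 95% intervals, folds have exact conditional binomial intervals, and shares have exact Clopper-Pearson ones; all cover counting error only, and UMIs of 1 cell are not independent. Clusters (Leiden, resolution 1, 30 components, 2000 variable genes without the members) were named from the same markers, and the rule that leading genes be in at least 10% of a cluster's cells was chosen after the clusters were seen. Genome positions are from GENCODE M21 (GRCm38).

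Named genes are the 7 members, the 3 genes most like each, the 2 largest and 2 smallest E15.5 to E13.5 ratios among pathway genes of at least 20 CPM, and the transcription factor gates with the largest and smallest ratios. Gates needed 20 cells and more than 3 UMIs on both sides, set after seeing the values; Dkk1, Sost, Lrp6 and the factors with ratios alike at both stages were also named after seeing them. Members and lists were chosen with earlier results of these data known. The ratio procedure was tested on simulated data. Alternatives changed the marker minimum, gene minimum, doublets, classes, CPM, pseudocount, mix and thinning, and 3 were added after the data were seen.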

Additional observations from a re-analysis of the deposited data

Results flagged for a closer look

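Members whose stage difference in another class ran against that in the mesenchymal lineage are listed here; the difference between the classes itself was not tested. Dkk2, higher at E15.5 than at E14.5 in the lineage, had log2 ratios of -2.03 in epithelial, -1.50 in neuronal and -7.19 in endothelial cells. The epithelial value rests on 15 UMIs at E14.5, of which 1 cell held 13, and the endothelial one on a count of 0 at E15.5, so that its size depends on the 1 CPM added. In an endothelial-like cluster made without the gene, Dkk2 was at 151 CPM (24 UMIs in 9 of 51 cells) and then 14.55 CPM (3 UMIs in 1 of 64 cells).

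Sfrp2 had log2 ratios of -1.19 in epithelial and -1.20 in neuronal cells over the same step. The neuronal value rests on 58 UMIs in 8 cells at E14.5. Sfrp1, slightly higher at E14.5 than at E13.5 in the lineage, had -0.80 in epithelial cells. Stratified cells, which had less Sfrp1, were 7 of 114 epithelial cells at E13.5 and 42 of 106 at E14.5, and in the other epithelial cells the fold was 0.66 with an interval across 1 (0.43 to 1.002). By cluster, epithelial-like cluster 0 had 218, 226 and 169 CPM of Sfrp1 at the 3 stages and the keratin-rich epithelial-like cluster 14 had 113, 83.5 and 66.6 CPM.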

How the results depend on the processing

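No paired analysis was possible because each stage has 1 library. Counts of members at least 2-fold higher stayed within 1.5 times the given value in 66 of 72 recalculations. For E15.5 against E14.5 the count became 1 (Wif1) with at least 3 markers, with at least 1000 genes per cell, and with clusters in place of gates. In cluster 5 alone, an alternative added after seeing the data, it became 2 there, 2 for E15.5 against E13.5 and 0 for E14.5 against E13.5, where the log2 ratios of Frzb and Kremen1 were -0.52 and -0.63 on 3 UMIs each at E14.5. Leaving out cells with a mesenchymal marker turned the E15.5 to E14.5 log2 ratio in neuronal cells to 2.39 for Dkk2 and to 0.36 for Sfrp2; leaving out the richest cell turned that of Dkk2 in epithelial cells to 0.024. Those are from few UMIs, and the cause was not tested. In the lineage the sign of every E15.5 to E13.5 log2 ratio was kept in the alternatives run, except for Sfrp1. Of single clusters only cluster 5 was among them, and Frzb in cluster 9, Sfrp2 in cluster 20 and Dkk3 in cluster 12 were lower, as given above. In all, 35 of 231 stage ratios moved beyond their counting interval, as did 39 of 378 class ratios. Of the 35, 13 were in cluster 5 alone and 11 with all cells of a library summed. In cluster 5, 2 others counted as reversed, those of Frzb and Kremen1 given above. The sign also turned there for Dkk3 at E14.5 over E13.5 (-0.39), Frzb at E15.5 over E14.5 (0.61) and Sfrp1 at E15.5 over E13.5 (0.075). Of 84 shares 37 moved with another depth of thinning or none, such as Frzb at E13.5, 6.01% without thinning against 3.64%, and Wif1, 2.23% against 1.30%. Against epithelium the sign was not kept for Kremen1 at any stage or for Sfrp1 at E13.5. Depth limits the members with few UMIs, such as Wif1, Frzb and Kremen1 at E13.5.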

Other observations

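A glial-like cluster with Cdh19 among its leading genes, of whose 139 cells 39 were gated as mesenchymal lineage, held both Dkk2 and Sfrp1 at each stage. Dkk2 was at 142, 138 and 154 CPM in 26, 44 and 69 cells, from 9, 18 and 24 UMIs. Sfrp1 was at 346, 283 and 315 CPM, from 22, 37 and 49 UMIs, in 13 of 26, 19 of 44 and 30 of 69 cells. The neural progenitor-like cluster of the E13.5 library, 582 cells, had 152 CPM of Sfrp1 with a UMI in 23.2% of cells, while 5 of the 6 neuronal-like clusters of that library had 11.4 to 42.6 CPM and the other, of 181 cells, had 90.7 CPM. That one had Hbb-y and Hba-x as its leading genes, a median of 8111 UMIs a cell against 1486 to 3514 in the 5 others, and 17.0% of its cells gated as mesenchymal lineage, and the part of this in its level was not tested. Among epithelial-like clusters, the keratin-rich one had 37.6, 32.1 and 72.0 CPM of Kremen1 at the 3 stages and the other large one 9.26, 46.5 and 26.1 CPM.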
